A study of Bos taurus with 17 samples.

Results

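The genes described here encode splicing factors, the proteins that remove introns from pre-mRNA, in bovine umbilical cord mesenchymal stem cells. They were taken by name from the deposited expression table: every gene whose symbol starts with SRSF, HNRNP, SF3A, SF3B, SNRP, U2AF, PRPF or LSM (followed by a digit for SRSF, SF3A, SF3B, PRPF and LSM) and whose mean over the libraries was at least 5 normalized reads. By name alone 80 genes matched, and 78 of them reached the minimum, out of 10960 genes that did so among the 12894 in the table. LSM11, with a mean of 2.23 normalized reads, and SRSF12, with 2.48, fell below it, while HNRNPA0 at 7.19, LSM8 at 7.64 and LSM5 at 9.08 were the members just inside. The rule itself uses names and the mean level alone.

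The cells were primary stromal cells of the umbilical cord, put through a myogenic protocol on plastic plates and on cellulose scaffolds of the kind studied for cultivated meat. RNA was measured by MARS-seq, which counts the 3′ ends of polyadenylated transcripts. Such counts give the amount of a gene's RNA and do not show which isoform it came from or how well any intron was spliced. Of 17 samples in 6 labelled groups, 15 libraries from 5 groups entered the comparisons. Day 0 plastic (n = 3) was sampled 1 day after seeding, in growth medium (low glucose DMEM with serum, antibiotics and glutamine). Day 3 plastic (n = 3) and day 21 plastic (n = 2) had then been in differentiation medium, a low-serum medium with ITS, BSA, dexamethasone, ascorbic acid 2 phosphate, VEGF, IGF and fibroblast growth factor. The media scaffold group (day 21, n = 4) received that same medium. In the smart scaffold group (day 21, n = 3) the scaffold itself carried the growth factors and the medium had none added. The day 0 scaffold group was not analysed here, so a scaffold set against day 0 plastic differs in time, medium and support together, and the smart scaffold differs from plastic in support and in growth factor route. The series calls the libraries biological replicates without naming donors, so a p-value sets a difference against the spread between these libraries. That spread was estimated for each gene over all 5 groups together, so for day 21 plastic (n = 2) it comes mostly from the other groups. No batch is named.

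Introns are removed by the spliceosome, which assembles on each intron from small nuclear ribonucleoproteins (snRNPs), particles of RNA and protein. Most snRNAs carry a ring of Sm proteins, U6 snRNA carries a ring of LSm proteins, U2AF and the SF3A and SF3B complexes select the 3′ splice site and the branch point, and PRPF proteins build and activate the tri-snRNP that brings in U4, U5 and U6. SR proteins and hnRNPs bind the pre-mRNA itself and shift which exons are kept, and both groups are known for adjusting splicing as muscle cells and stem cells differentiate. By these roles the 78 genes fell into 11 SNRP genes, 12 LSM genes, 12 SF3A, SF3B and U2AF genes, 13 PRPF genes, 10 SR genes and 20 hnRNP genes.

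The libraries held 2197356 to 15483745 reads, with the day 21 plastic libraries at 5264578 and 2197356, the latter the shallowest of all. All 7 mesenchymal stromal markers were in the table, summing to 141000 to 152600 normalized reads at day 0, 185700 to 202800 on day 21 plastic, 443700 to 451100 on the media scaffold and 412400 to 473000 on the smart scaffold. Most of each sum was COL1A1, COL1A2 and VIM, and the other markers did not all follow it. From day 21 plastic to the media and smart scaffold, mean ENG went from 3407.5 to 614 and 576 and THY1 from 18122 to 15475 and 10141. CD44 went from 335 to 740 and 824, and NT5E from 188 to 317 and 276. The 4 smooth muscle markers summed to 31710 to 36330 at day 0, 69880 to 73570 on day 21 plastic, 51720 to 64570 on the media scaffold and 67820 to 81550 on the smart scaffold. Most of each sum was ACTA2, while MYH11 had means of 19.8 at day 0, 2469 on day 21 plastic and 1324 and 1262 on the media and smart scaffold. Of the 10 skeletal muscle markers 3 were in the table, with summed levels of 75.9 to 103 normalized reads on day 21 plastic, 2.37 to 8.44 at day 0 and 6.96 to 18.6 on the media scaffold. Most of the plastic sum was TNNT3 (mean 72.7), while ACTA1 (12.7 against 4.42 at day 0) was not called. Blood and immune markers (3 of 7 in the table) summed to 89.7 to 113 normalized reads on day 21 plastic against 16.0 to 22.5 at day 0. From day 0 to day 21 plastic, mean CD14 went from 0.938 to 60.9 and LAPTM5 from 2.14 to 24.4, while CD68 stood at 16.3 and 16.2. All 3 were called lower on both scaffolds than on day 21 plastic. The endothelial marker VWF had a mean of 5.84 at day 0 and 22.8 at day 3. It had 29.9 on day 21 plastic and 27.5 and 26.4 on the media and smart scaffold. The epithelial marker CDH1 stood at 0 in every day 3 library, 0 to 5.52 on day 21 plastic and 1.65 to 5.97 on the scaffolds. The sum of 12 proliferation genes was lower at day 3 and day 21 than at day 0, as the splicing factors were together. It was 10720 to 11480 normalized reads at day 0, 5267 to 6461 at day 3, 1082 to 1216 on day 21 plastic, 1566 to 1690 on the media scaffold and 1454 to 1534 on the smart scaffold. Against day 21 plastic, 4 of the 12 were called higher on the media scaffold and 2 on the smart scaffold, with 0 lower. Of all genes, 20.8% and 21.4% were called higher there. CCNA2, MCM2, MCM3, MCM5, MCM7 and TOP2A overlapped day 21 plastic on both scaffolds. The part of these lists in the results below was not tested. In bulk RNA, fewer cells of a type and less RNA per cell cannot be told apart.

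Splicing factor RNA took up less of the total by day 21, in every class. The 78 genes together made up 1.42% ± 0.0166 (SD, n = 3) of all normalized reads at day 0, 1.196% ± 0.0892 (n = 3) at day 3 and 0.643% ± 0.0389 (n = 2) on day 21 plastic. They made up 0.615% ± 0.00582 (n = 4) on the media scaffold and 0.639% ± 0.00692 (n = 3) on the smart scaffold. The lowest day 0 library, at 1.40%, lay above the highest day 3 library, at 1.30%, and the highest day 21 library of any kind reached 0.670%. The classes did not move by the same amount. The SNRP share went from 0.314% ± 0.00343 at day 0 to 0.119% ± 0.00153 on day 21 plastic, and the PRPF share from 0.112% ± 0.000975 to 0.0904% ± 0.000743. The totals themselves were larger at day 21, at 7123755 to 7550652 normalized reads against 6076876 to 6295525 at day 0. The summed PRPF reads were 6896 ± 95.9 at day 0 and 6701 ± 237 on day 21 plastic, so their lower share went with a larger total. The SNRP sums were 19321 ± 250 and 8834 ± 127. On both scaffolds the SR share (0.0476% ± 0.000466 and 0.0520% ± 0.00125) and the PRPF share (0.0587% ± 0.00245 and 0.0611% ± 0.00124) lay below day 21 plastic, at 0.0777% ± 0.00155 for SR genes. The LSM share lay above it there, at 0.0511% ± 0.00111 and 0.0529% ± 0.00209 against 0.0413% ± 0.00352.

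**Figure D1:**
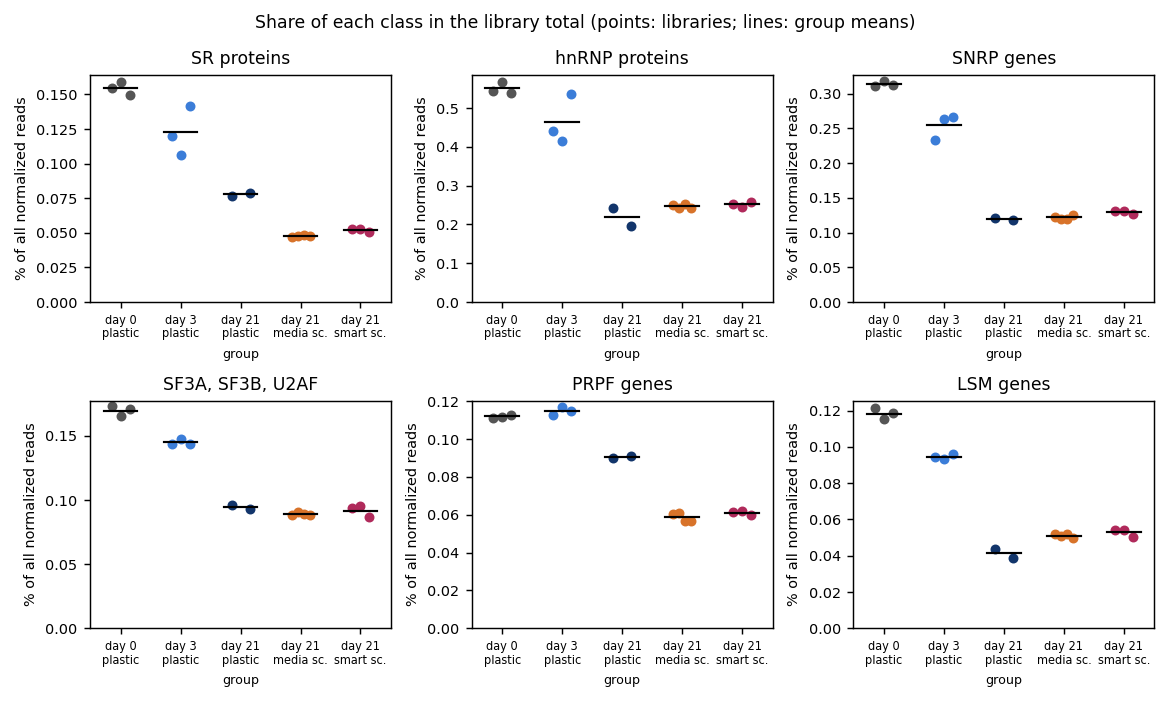
Share of all normalized reads taken by each class of splicing factor gene (vertical axes, percent, starting at 0) in the 5 groups (horizontal axes); points are libraries and lines are group means. Every class is lower in all day 21 groups than at day 0, and SR and PRPF genes are lower on both scaffolds than on day 21 plastic.

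Single genes were compared in 1 limma fit of log2(normalized reads + 1) over the 15 libraries. A gene was called higher or lower at a Benjamini-Hochberg adjusted p under 0.05, taken over all 10960 genes, together with a change of at least 1 on the log2 scale. At day 3, 2 of the 78 members were lower and 0 higher than at day 0 (2.56% of members called, against 10.0% of all genes tested, with 3.73% called lower and 6.27% higher). Without the fold threshold, 34 members were lower and 0 higher at a limma adjusted p under 0.05, and 43 and 0 at an unadjusted p under 0.05. The share of all genes at these 2 thresholds was not counted. By edgeR and DESeq2, too, 0 members were called higher. The groups did not overlap for 45 of the 78 members, against 44.3% of all genes. The members' median log2 change was -0.33, against -0.02 over all genes. SF3B6 and SNRPB2, both parts of the U2 snRNP, were the genes called at day 3, and SNRPB2 was called at neither of the settings that left out day 0 replicate 2 or day 3 replicate 1 (log2 change -0.98 in each).

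By day 21 on plastic, 36 members were lower and 4 higher than at day 0, a called share of 51.3% against 45.2% of all genes. Of all genes, 24.1% were called lower and 21.2% higher. For 69 of the 78 members no day 21 plastic library lay within the day 0 range, nor the reverse, against 79.7% of all genes. The median member changed by -0.93 and the median gene by -0.06. From day 3 to day 21 on plastic 22 members were lower and 3 higher (32.1% called against 34.9% of all genes, of which 19.4% were lower and 15.5% higher). Here 55 of the 78 members did not overlap, against 65.4% of all genes. When all libraries were brought to the same total, the median of all genes moved by -0.26 in the first comparison and -0.32 in the second, and the counts became 44 lower and 1 higher, and 33 lower and 1 higher.

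Against day 0, 30 members were lower on the media scaffold and 27 on the smart scaffold, which is 38.5% and 34.6% of members, against 32.4% and 30.6% of all genes called in either direction and 14.9% and 14.1% called lower. The count of members called higher was 0 on both scaffolds by limma, with 3 and 4 at an unadjusted p under 0.05, where all genes were not counted. By edgeR and DESeq2 it was 0 on the media scaffold and 1 on the smart scaffold. The media scaffold libraries did not overlap day 0 for 69 of the 78 members, against 72.4% of all genes. The smart scaffold libraries did not for 70 of the 78, against 72.9%. The median member stood at -0.77 and -0.72, while the median over all genes was 0 and -0.003. These comparisons and the one of day 21 plastic share the day 0 libraries, so their values are set side by side and not counted as separate support.

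**Figure D2:**
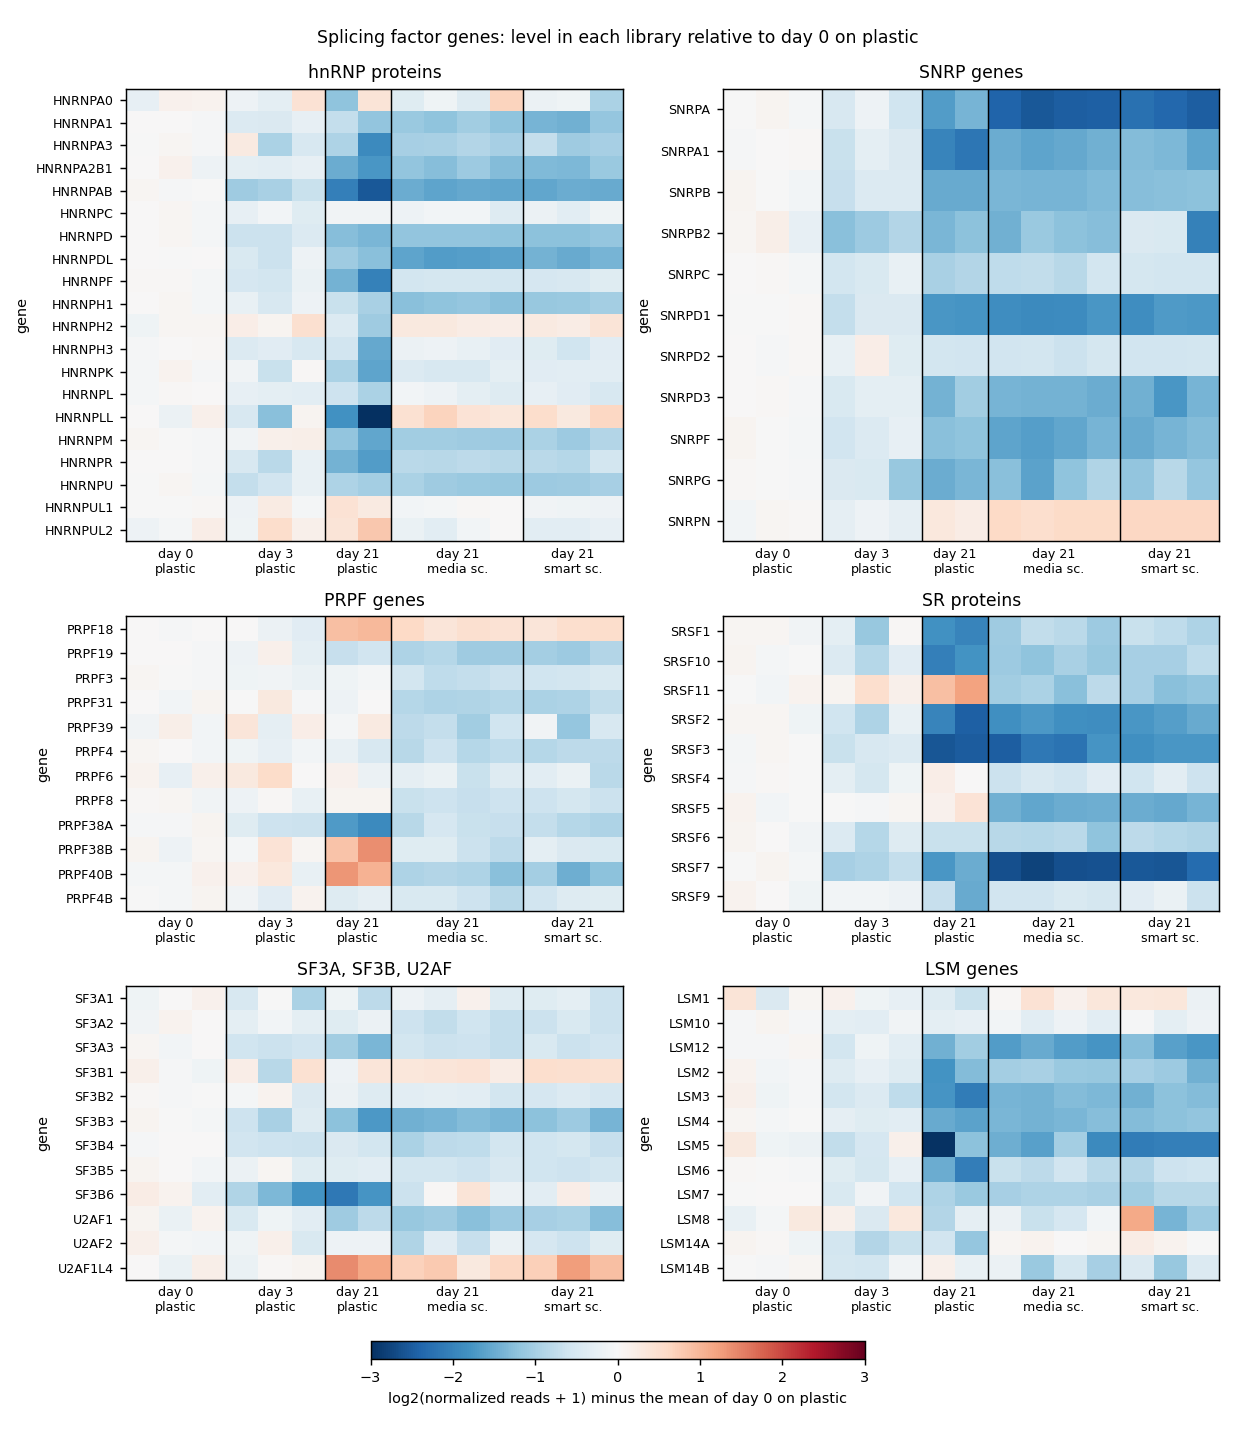
Level of each of 77 of the genes in each of the 15 libraries as log2(normalized reads + 1) minus the day 0 mean, in 1 panel per class (rows genes, columns libraries grouped by condition, color scale ending at -3 and 3). Blue fills most SNRP, LSM and hnRNP genes in all day 21 libraries, while SRSF11, PRPF38B, PRPF40B and U2AF1L4 are red on day 21 plastic.

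Among the SNRP genes, which encode the Sm ring and the proteins specific to U1 and U2, 8 of 11 were lower on day 21 plastic than at day 0, as were 8 on the media scaffold and 7 on the smart scaffold. These are 72.7%, 72.7% and 63.6%, against 24.1%, 14.9% and 14.1% of all genes called lower. SNRPD1, an Sm ring protein, had 3318, 3337 and 3417 normalized reads in the day 0 libraries, 2032, 2500 and 2505 at day 3, 1005 and 983 on day 21 plastic, 922, 894, 910 and 996 on the media scaffold and 921, 1034 and 1020 on the smart scaffold. Every day 21 library lay below every day 3 library, and these below day 0, while the 3 day 21 groups overlapped. Its log2 change from day 0 was -1.75 on plastic (SE 0.10, limma adjusted p = 1.5e-10), -1.85 on the media scaffold (SE 0.09, adjusted p = 5.7e-12) and -1.76 on the smart scaffold (SE 0.09, adjusted p = 3.7e-11). The other Sm proteins SNRPB, SNRPD3, SNRPF and SNRPG were called lower in all of these comparisons, with log2 changes from -1.06 to -1.55. SNRPD2 was called in none (-0.57, -0.58 and -0.56).

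SNRPA, the U1 protein that binds a stem-loop of U1 snRNA, continued lower on the scaffolds. It had 653, 697 and 641 normalized reads at day 0, 476, 597 and 441 at day 3, and 208 and 251 on day 21 plastic. The media scaffold libraries had 126, 112, 118 and 121 and the smart scaffold libraries 140, 129 and 118. All scaffold libraries thus lay below both plastic libraries of day 21. Its log2 change from day 0 was -1.53 on plastic, -2.46 on the media scaffold (SE 0.12, limma adjusted p = 5.6e-12) and -2.35 on the smart scaffold (SE 0.12, adjusted p = 3.4e-11), and the differences from day 21 plastic, -0.93 and -0.82, stayed under the fold threshold. SNRPA1, which partners with SNRPB2 in U2, went the other way between supports: its means were 1505 ± 41.3 (SD, n = 3) at day 0, 357 ± 33.6 (n = 2) on day 21 plastic, 529 ± 22.4 (n = 4) on the media scaffold and 571 ± 56.9 (n = 3) on the smart scaffold. It was called lower than at day 0 in all 3 day 21 groups (-2.08, -1.51 and -1.40).

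SNRPN was the SNRP gene whose level was higher at day 21. It encodes an Sm protein closely related to SNRPB and shares its transcript with SNURF, so 3′ counts do not separate them. The libraries had 514, 573 and 559 normalized reads at day 0, 453, 495 and 457 at day 3, 687 and 639 on day 21 plastic, 823, 775, 821 and 821 on the media scaffold and 839, 845 and 848 on the smart scaffold. No scaffold library overlapped a plastic library of any day. The log2 differences from day 0 were 0.27, 0.56 (SE 0.08, limma adjusted p = 7.1e-06) and 0.62 (SE 0.08, adjusted p = 5.5e-06), all under the fold threshold.

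Of the 12 LSM genes, 7 were lower on day 21 plastic than at day 0 and 5 on each scaffold. These are 58.3% and 41.7%, against 24.1% of all genes on plastic and 14.9% and 14.1% on the scaffolds. LSM3, part of the ring on U6 snRNA and of the ring that starts mRNA decapping, went from 1412 ± 139 normalized reads (SD, n = 3) at day 0 to 368 ± 59.0 (n = 2) on day 21 plastic, 545 ± 19.5 (n = 4) on the media scaffold and 564 ± 41.1 (n = 3) on the smart scaffold. Its log2 changes were -1.94, -1.37 and -1.32. LSM4, another protein of these rings, changed by -1.56 (SE 0.09, limma adjusted p = 1.7e-10), -1.36 and -1.24. LSM2 changed by -1.54, -1.05 and -1.18. LSM7 was called on plastic alone, at -1.02, and stood at -0.95 and -0.90 on the scaffolds, a split made by the fold threshold, and its call on plastic was lost without day 21 plastic replicate 2 (-0.93). LSM12, which is not part of either ring, changed by -1.25, -1.66 and -1.55.

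LSM6, which sits in both rings, was the LSM gene called between supports. Its normalized reads were 598, 577 and 563 at day 0, 449, 399 and 487 at day 3, 207 and 137 on day 21 plastic, 362, 338, 390 and 328 on the media scaffold and 315, 376 and 385 on the smart scaffold. All 7 scaffold libraries lay above both day 21 plastic libraries and below day 0. Against day 21 plastic it was 1.06 higher on the media scaffold (SE 0.14, limma adjusted p = 6.6e-06) and 1.08 higher on the smart scaffold, on the log2 scale, and without day 21 plastic replicate 2 these became 0.77 and 0.78, with 0.96 and 0.99 by DESeq2. LSM5 rested on few reads, 3 in all on day 21 plastic against 100 at day 0, a ratio of day 0 to plastic of 5.81 with a 95% counting interval of 1.93 to 28.6. LSM1, which marks the cytoplasmic ring, LSM8, which marks the U6 ring, LSM10 of the histone U7 particle, LSM14A and LSM14B were called in no comparison with day 0. LSM14A, a P-body protein, had 304 ± 22.5 normalized reads at day 0, 188 ± 21.7 at day 3, 168 ± 48.7 on day 21 plastic, 315 ± 7.65 on the media scaffold and 326 ± 26.1 on the smart scaffold.

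Of the 12 genes for 3′ splice site and branch point recognition, 3 were lower and 1 higher on day 21 plastic than at day 0, and 2 were lower on each scaffold. The called shares were 33.3%, 16.7% and 16.7%, against 45.2%, 32.4% and 30.6% of all genes. The counts called lower were near the shares of all genes, 24.1%, 14.9% and 14.1%. More of the 12 differed by less than the fold threshold. In this class 8 on plastic and 9 on each scaffold had a limma adjusted p under 0.05, calls included, a count not made for all genes. SF3B1, the SF3B scaffold protein that holds the branch point, had 276 ± 25.6 normalized reads (SD, n = 3) at day 0, 301 ± 75.6 (n = 2) on day 21 plastic, 347 ± 19.4 (n = 4) on the media scaffold and 384 ± 8.53 (n = 3) on the smart scaffold and was called in no comparison. SF3B3, also of the SF3B complex, was called lower in all 3 day 21 groups (-1.49, -1.38 and -1.23). U2AF1, the small U2AF subunit that reads the AG at the 3′ splice site, had 2733 ± 304 normalized reads at day 0 and changed by -0.93 on plastic, under the fold threshold, -1.13 on the media scaffold and -1.07 on the smart scaffold. The last of these became -0.98 without smart scaffold replicate 3. U2AF2, the large subunit, which binds the polypyrimidine tract, stood at -0.15, -0.53 and -0.49 and was not called.

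SF3B6, the SF3B protein that contacts the branch point adenosine, was low on plastic after day 0 and not on the scaffolds. It had 124, 116 and 85.3 normalized reads at day 0, 56.6, 41.3 and 30.4 at day 3, 23.5 and 30.9 on day 21 plastic, 68.1, 109, 140 and 94.8 on the media scaffold and 85.8, 123 and 95.4 on the smart scaffold. The scaffold libraries overlapped day 0 and all lay above every plastic library of days 3 and 21. Against day 0 it fell by 1.35 at day 3 (SE 0.26, limma adjusted p = 0.00077) and by 1.95 on day 21 plastic, and stood at -0.10 and -0.09 on the scaffolds. Against day 21 plastic it was higher by 1.85 on the media scaffold (SE 0.28, adjusted p = 1.9e-05) and 1.86 on the smart scaffold (SE 0.29, adjusted p = 3.1e-05).

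U2AF1L4, a paralog of U2AF1, was the gene of this class that rose on plastic. Its levels were low throughout: 11.95, 10.1 and 13.4 normalized reads at day 0, 10.1, 12.1 and 12.5 at day 3, 33.1 and 27.5 on day 21 plastic, 19.7, 20.9, 14.6 and 18.8 on the media scaffold and 19.8, 29.5 and 23.0 on the smart scaffold. Every day 21 library lay above every library of day 0 and day 3. The log2 change on plastic was 1.29 (SE 0.28, limma adjusted p = 0.00054), and the smart scaffold stood 0.96 above day 0, under the fold threshold.

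PRPF genes came next. On day 21 plastic 1 of 13 was lower and 2 were higher than at day 0, and 1 was lower on each scaffold. The called shares were 23.1%, 7.69% and 7.69%, against 45.2%, 32.4% and 30.6% of all genes. With all libraries brought to the same total, both higher calls on plastic were lost and 5 genes were lower on each scaffold. PRPF8, the U5 protein at the catalytic centre, had 1481 ± 95.3 normalized reads (SD, n = 3) at day 0, 1366 ± 129 (n = 3) at day 3, 1556 ± 4.47 (n = 2) on day 21 plastic, 942 ± 20.7 (n = 4) on the media scaffold and 978 ± 45.1 (n = 3) on the smart scaffold. It differed from day 21 plastic by -0.72 and -0.67, under the fold threshold, with limma adjusted p = 3.8e-06 and 1.5e-05. PRPF19, the ubiquitin ligase of the complex that joins at activation, stood at -0.64 on plastic and at -0.98 and -0.99 on the scaffolds against day 0, just short of a call. PRPF31, which holds the tri-snRNP together, differed from day 21 plastic by -0.81 and -0.80.

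PRPF40B, a U1-associated protein, was high on day 21 plastic and low on both scaffolds. It had 135, 134 and 153 normalized reads at day 0, 154, 176 and 120 at day 3, 353 and 289 on day 21 plastic, 73.0, 75.6, 73.7 and 58.2 on the media scaffold and 69.3, 50.3 and 59.8 on the smart scaffold. Its day 21 plastic libraries lay above all others and its scaffold libraries below all others. It rose by 1.18 on day 21 plastic over day 0 (SE 0.19, limma adjusted p = 3e-05) and was lower on the media scaffold than on day 21 plastic by -2.18 on the log2 scale (SE 0.18, adjusted p = 2.3e-08), with -2.41 for the smart scaffold (SE 0.19, adjusted p = 1.3e-08). Against day 0 it was called lower on both scaffolds, with a log2 change just past -1 on the media scaffold and -1.23 on the smart scaffold. The first of these lost its call without day 0 replicate 3 (-0.94) or media scaffold replicate 4 (-0.92), with a replicate block (-0.92) and with a pseudocount of 4 (-0.97), and the rise on plastic became 0.91 with libraries brought to the same total.

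PRPF38B, a protein related to the tri-snRNP component PRPF38A, was likewise high on day 21 plastic and low on both scaffolds: 463, 392 and 450 normalized reads at day 0, 414, 581 and 450 at day 3, 791 and 1148 on day 21 plastic, 337, 335, 278 and 251 on the media scaffold and 357, 323 and 314 on the smart scaffold. Both day 21 plastic libraries were above, and all scaffold libraries below, every library of the earlier days. The difference from day 21 plastic was -1.67 (SE 0.17, limma adjusted p = 1.8e-07) and -1.52 (SE 0.17, adjusted p = 9.1e-07), and its rise on plastic over day 0 was 1.13, or 0.86 without day 21 plastic replicate 2. PRPF38A itself was the PRPF gene that fell on plastic, by 1.80, from 222 ± 9.60 normalized reads at day 0 to 63.0 ± 6.51, and it stood at 139 ± 12.9 on the media scaffold (1.12 above day 21 plastic, called, or 0.94 after quantile normalization) and 124 ± 9.03 on the smart scaffold (0.96 above, not called). PRPF18, a factor for exon joining, had 135 ± 2.89 normalized reads at day 0 and 259 ± 7.53 on day 21 plastic and was called higher against day 3 (1.10, or 0.77 with libraries brought to the same total), not against day 0 (0.94).

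SR genes moved in both directions. Of 10, 6 were lower and 1 higher on day 21 plastic than at day 0, 6 were lower on the media scaffold and 5 on the smart scaffold. The called shares were 70%, 60% and 50%, against 45.2%, 32.4% and 30.6% of all genes. SRSF3, a small SR protein that also aids mRNA export, had 584, 631 and 598 normalized reads at day 0, 381, 434 and 453 at day 3, 101 and 106 on day 21 plastic, 108, 135, 130 and 177 on the media scaffold and 167, 180 and 180 on the smart scaffold. All day 21 libraries lay below all earlier ones. Its log2 change from day 0 was -2.53 on plastic (SE 0.16, limma adjusted p = 2.8e-10), -2.15 on the media scaffold and -1.78 on the smart scaffold. SRSF2, which acts through exonic enhancers, changed by -2.21, -1.82 and -1.64. SRSF1, the founding SR protein, changed by -1.89 on plastic and by -0.93 and -0.79 on the scaffolds, where it was not called.

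SRSF7, a zinc-knuckle SR protein, was lower at each later group. It had 2419, 2559 and 2314 normalized reads at day 0, 1224, 1287 and 1485 at day 3, 724 and 866 on day 21 plastic, 387, 355, 390 and 396 on the media scaffold and 416, 409 and 487 on the smart scaffold. Day 0, day 3, day 21 plastic and the scaffolds formed 4 ranges that did not overlap. Its log2 change from day 0 was -0.87 at day 3 (limma adjusted p = 6.8e-06, under the fold threshold), -1.61 on day 21 plastic, -2.67 on the media scaffold (SE 0.10, adjusted p = 2.2e-13) and -2.48 on the smart scaffold (SE 0.10, adjusted p = 2e-12). Against day 21 plastic it was called lower on the media scaffold (-1.05, or -0.92 without day 21 plastic replicate 2) and not on the smart scaffold (-0.86).

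SRSF5 and SRSF11 were high on plastic and low on scaffolds. SRSF5, an SR protein known to respond to growth signals, had 1207, 1069 and 1116 normalized reads at day 0, 1113, 1111 and 1169 at day 3, 1244 and 1512 on day 21 plastic, 415, 384, 400 and 410 on the media scaffold and 401, 390 and 430 on the smart scaffold. All scaffold libraries lay far below all plastic libraries of any day. Its difference from day 21 plastic was -1.77 (SE 0.10, limma adjusted p = 2.6e-10) and -1.75 (SE 0.10, adjusted p = 4.5e-10), and from day 0 -1.49 and -1.47. SRSF11, which binds near 3′ splice sites and is counted among the SR-related proteins, had 726, 691 and 788 normalized reads at day 0, 774, 1044 and 818 at day 3, 1372 and 1691 on day 21 plastic, 355, 378, 304 and 423 on the media scaffold and 368, 308 and 322 on the smart scaffold. Again the scaffold libraries lay below, and the day 21 plastic libraries above, all others. It was lower than day 21 plastic by -2.07 (SE 0.14, adjusted p = 3.3e-09) and -2.20 (SE 0.15, adjusted p = 2.7e-09). Its rise on plastic over day 0, 1.05, became 0.90 without day 21 plastic replicate 2 and 0.79 with libraries brought to the same total. On the media scaffold it stood at -1.01 against day 0, which became -0.93 without media scaffold replicate 3 and -0.96 without day 0 replicate 3.

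Of the 20 hnRNP genes, 11 were lower on day 21 plastic than at day 0, 8 on the media scaffold and 7 on the smart scaffold. These are 55%, 40% and 35%, against 24.1%, 14.9% and 14.1% of all genes called lower. HNRNPAB, a relative of HNRNPA and HNRNPD proteins, had 4920, 4583 and 4650 normalized reads at day 0, 2246, 2407 and 2960 at day 3, 1133 and 811 on day 21 plastic, 1670, 1571, 1631 and 1590 on the media scaffold and 1610, 1673 and 1660 on the smart scaffold. Each scaffold library lay between day 21 plastic and day 3. The log2 change was -2.30 on plastic (SE 0.13, limma adjusted p = 7.6e-11), -1.54 on the media scaffold and -1.52 on the smart scaffold. HNRNPA2B1, which binds RNA at UAG motifs, changed by -1.61, -1.21 and -1.26, and HNRNPD, an AU-rich element binder, by -1.33, -1.19 and -1.21. HNRNPA1, which counters SR proteins at many exons, had 2522 ± 60.5 normalized reads (SD, n = 3) at day 0, 1328 ± 303 (n = 2) on day 21 plastic, 1146 ± 62.0 (n = 4) on the media scaffold and 1007 ± 105 (n = 3) on the smart scaffold. Its changes were -0.94 on plastic, under the fold threshold, and -1.14 and -1.33 on the scaffolds, and since it has many near-identical copies in mammalian genomes its counts are uncertain. HNRNPK, a poly(C) binder, fell by 1.26 on plastic, a change that became -0.94 without day 21 plastic replicate 2, and stood at -0.42 and -0.32 on the scaffolds.

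HNRNPLL, the hnRNP L relative known for the splicing of CD45 in T cells, had the widest range of group means among the members. It had 101, 87.5 and 112 normalized reads at day 0, 70.7, 41.3 and 105 at day 3, 27.6 and 10.3 on day 21 plastic, 136, 160, 132 and 125 on the media scaffold and 144, 123 and 153 on the smart scaffold. In day 21 plastic replicate 2, 1 read was worth 3.44 normalized reads, so the value of 10.3 rested on few reads. Both day 21 plastic libraries lay below all others, and all scaffold libraries above day 0. It fell by 2.48 on day 21 plastic (SE 0.34, limma adjusted p = 4.7e-06) and was higher than there by 2.95 on the media scaffold (SE 0.32, adjusted p = 5.5e-07) and 2.96 on the smart scaffold (SE 0.34, adjusted p = 9.1e-07). Against day 0 the scaffolds stood at 0.46 and 0.48, not called.

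HNRNPF, which binds G-rich stretches, had 2653, 2663 and 2472 normalized reads at day 0, 1838, 1775 and 2264 at day 3, 976 and 639 on day 21 plastic, 1783, 1811, 1790 and 1776 on the media scaffold and 1822, 1873 and 2020 on the smart scaffold. The scaffold libraries overlapped day 3 and lay above both day 21 plastic libraries. Against day 21 plastic it was 1.18 higher on the media scaffold (SE 0.13, limma adjusted p = 8.6e-07) and 1.27 higher on the smart scaffold (SE 0.14, adjusted p = 6.6e-07), and without day 21 plastic replicate 2 these became 0.88 and 0.96. HNRNPH2, its close relative, was called on the smart scaffold (1.04), a call lost without that library (0.72), without smart scaffold replicate 3 (0.99), by edgeR (0.99) and by DESeq2 (0.94). On the media scaffold its difference rounded to 1.00 and fell short of the threshold. HNRNPC, which binds U-rich tracts and keeps cryptic exons out, was the steadiest member, with group means from 324 ± 34.1 to 379 ± 15.9 normalized reads.

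Set directly against day 21 plastic, 10 members were called on the media scaffold, 5 higher and 5 lower (12.8% against 35.4% of all genes). On the smart scaffold 11 were called, 7 higher and 4 lower (14.1% against 37.5%). For each scaffold, 57 of the 78 members did not overlap with day 21 plastic, against 71.2% and 73.1% of all genes. Higher on both were HNRNPLL, SF3B6, HNRNPF and LSM6, with PRPF38A added on the media scaffold and SRSF1 (1.10), SRSF10 (1.01) and HNRNPH2 on the smart scaffold. Lower on both were PRPF40B, SRSF11, SRSF5 and PRPF38B, with SRSF7 added on the media scaffold. SRSF10, a splicing repressor when dephosphorylated, was lost as a call without day 21 plastic replicate 1 (0.89) or smart scaffold replicate 3 (0.93), with a replicate block (0.95), after quantile normalization (0.95) and, narrowly, with a pseudocount of 4. The members' median was 0.06 on the media scaffold and 0.03 on the smart scaffold and turned to -0.04 and -0.03 after quantile normalization, so no common direction was shown. Both comparisons rest on the same 2 plastic libraries: without replicate 1 the count of called members rose to 17 on each scaffold, of which 10 and 12 were higher.

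**Figure D3:**
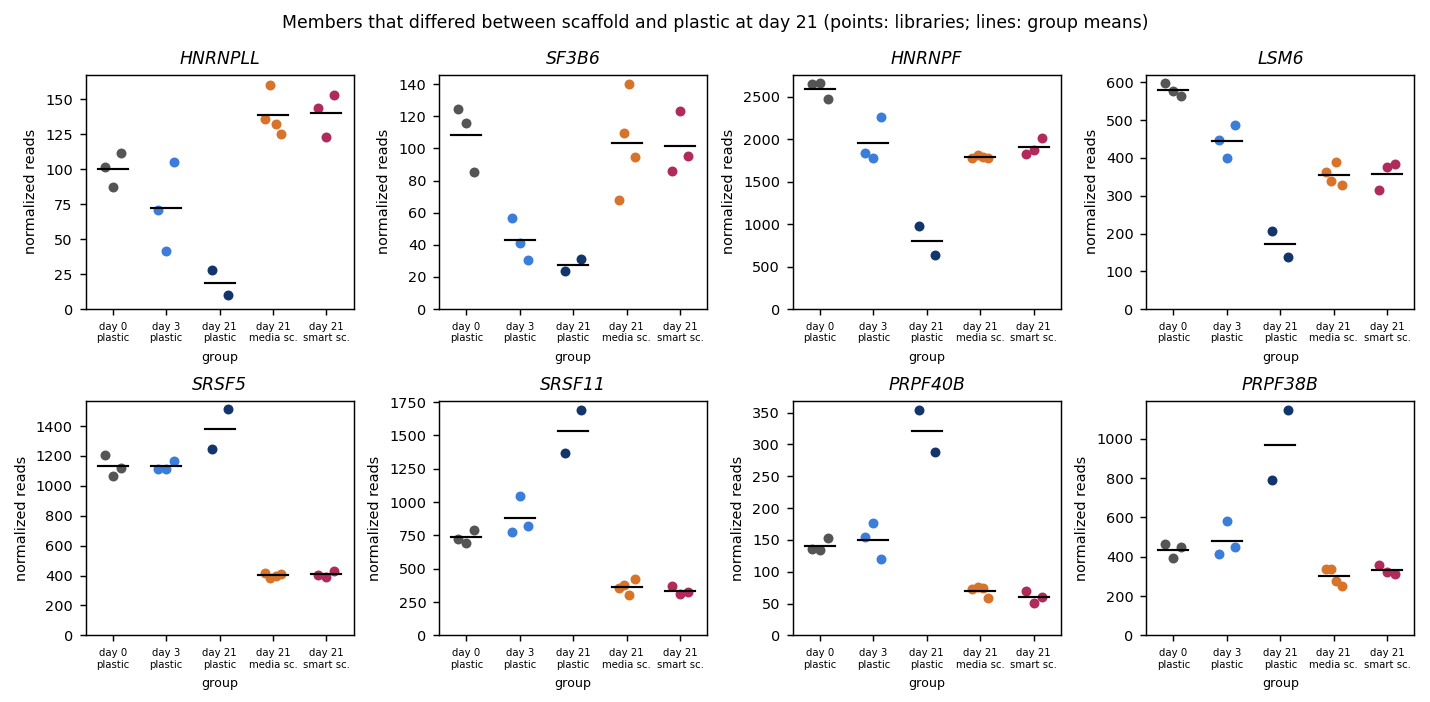
Normalized reads (vertical axes, starting at 0) of 8 members called between scaffold and plastic at day 21, in the 5 groups (horizontal axes); points are libraries and lines are group means. HNRNPLL, SF3B6, HNRNPF and LSM6 are low on day 21 plastic, while SRSF5, SRSF11, PRPF40B and PRPF38B are high there and low on both scaffolds.

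The route of the growth factors made no difference that passed the test. Between the smart and the media scaffold 0 of 78 members were called by limma, edgeR or DESeq2, against 0.903% of all genes by limma (0.0730% higher and 0.830% lower). At an unadjusted p under 0.05 there was 1 member, SRSF3, at 0.37 on the log2 scale (95% interval 0.09 to 0.65, limma adjusted p = 0.19). The intervals bound how large a difference could have gone unseen. For 75 members the 95% interval lay within 1 on either side of 0, and the median half-width was 0.25. The interval reached past that size for LSM5, LSM8 and HNRNPA0, which had few reads. The estimates ran from -0.57 to 0.37, with 54 above 0 and 24 below. The libraries did not overlap for 11 of the 78 members, against 20.4% of all genes.

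**Figure D4:**
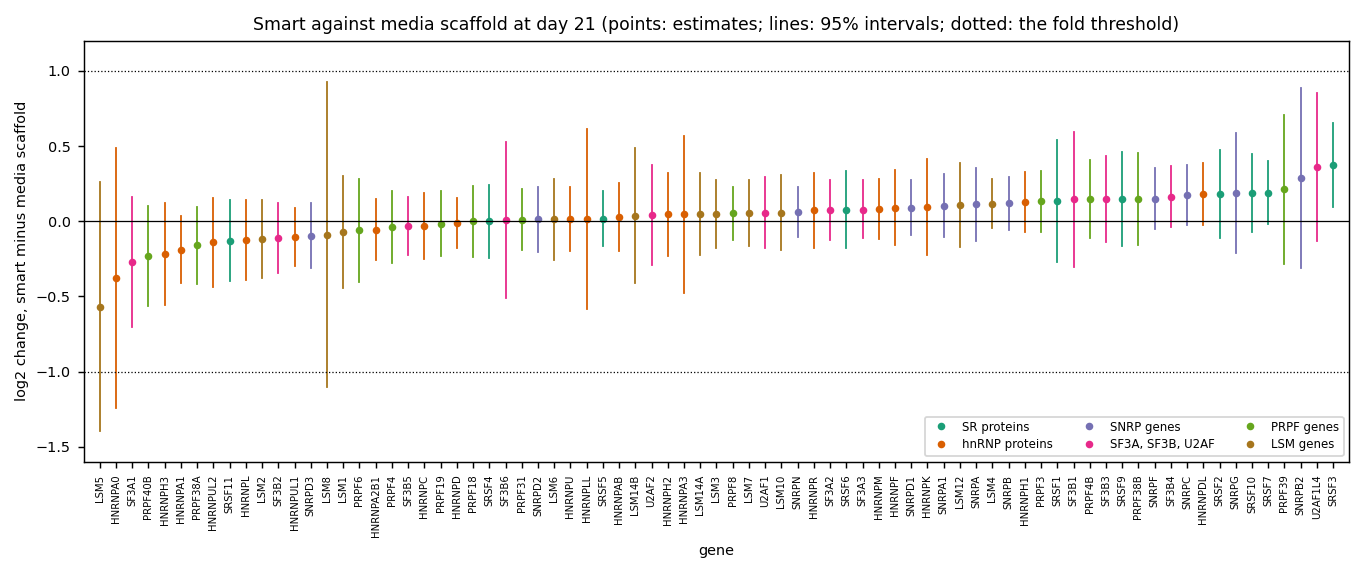
Log2 difference of 77 members between smart and media scaffold at day 21 (vertical axis), with members ordered by estimate along the horizontal axis; points are estimates, lines 95% intervals, colors the class, and dotted lines the fold threshold at -1 and 1. No estimate reaches a dotted line, and the widest intervals belong to LSM5, LSM8 and HNRNPA0.

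Genes that act on these proteins were read beside them. Of 18 SR protein kinases and nuclear speckle proteins, 4 were higher and 1 lower on day 21 plastic than at day 0, and 9 were lower on the media scaffold and 10 on the smart scaffold than on day 21 plastic, with 2 and 3 higher. Of all genes, 21.2% were higher and 24.1% lower on day 21 plastic than at day 0, so the 4 higher were near the share of all genes. Against day 21 plastic, 14.6% and 16.0% of all genes were lower on the 2 scaffolds, and 20.8% and 21.4% higher. SRPK2, a kinase that phosphorylates SR proteins, had 454, 389 and 465 normalized reads at day 0, 446, 628 and 496 at day 3, 1352 and 1429 on day 21 plastic, 433, 538, 456 and 525 on the media scaffold and 454, 482 and 466 on the smart scaffold. Only the day 21 plastic libraries stood apart, and the others overlapped. It rose by 1.68 on plastic and was lower on the scaffolds than there by -1.52 and -1.57. SRRM2, a scaffold protein of speckles, had 1886 ± 73.9 (SD, n = 3) at day 0, 3946 ± 727 (n = 2) on day 21 plastic, 1430 ± 47.7 (n = 4) on the media scaffold and 1362 ± 66.5 (n = 3) on the smart scaffold. Its rise of 1.05 became 0.86 without day 21 plastic replicate 2. SRPK1, the other main SR kinase, was lower than day 0 on the media scaffold (-1.76) and the smart scaffold (-1.47), and lower than day 21 plastic by -1.55 and -1.26, the last of which became -0.85 without smart scaffold replicate 3. SRPK2 and SRRM2 were chosen for naming after their values were seen.

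The SMN complex loads Sm proteins onto snRNA after their methylation by the PRMT5 methylosome. Of 15 tested genes for the complex, Sm methylation and related snRNP steps, 8 were lower on day 21 plastic than at day 0. On each scaffold 5 were lower than at day 0. Of all genes, 24.1% were lower on plastic and 14.9% and 14.1% on the scaffolds. Set against day 21 plastic, 4 of the 15 were higher on each scaffold, and 2 were lower on the media and 3 on the smart scaffold. These counts were near the shares of all genes, 20.8% and 21.4% higher and 14.6% and 16.0% lower. WDR77, the methylosome partner of PRMT5, had 436, 455 and 439 normalized reads at day 0, 211, 194 and 277 at day 3, 62.1 and 34.4 on day 21 plastic, 146, 124, 155 and 133 on the media scaffold and 152, 141 and 144 on the smart scaffold. The scaffold libraries fell between day 3 and day 21 plastic without overlap. Its log2 change was -3.23 on plastic, -1.67 on the media scaffold and -1.602 on the smart scaffold, and it was 1.57 and 1.63 higher on the scaffolds than on day 21 plastic. CLNS1A, the chaperone that hands Sm proteins to the complex, had 180 ± 7.61 at day 0, 38.3 ± 29.8 on day 21 plastic, 158 ± 14.96 on the media scaffold and 162 ± 32.5 on the smart scaffold. It fell by 2.45 on plastic and was 2.26 and 2.28 higher on the scaffolds than there. STRAP, an SMN-bound WD-repeat protein, had means in the same order of groups of 93.3 ± 14.0, 18.9 ± 2.49, 99.2 ± 16.2 and 105 ± 29.4 normalized reads. The genes that were lower on the scaffolds than on day 21 plastic were TGS1, which trimethylates the snRNA cap (-1.36 and -1.45), GEMIN5, the SMN complex protein that recognizes snRNA (-1.81 and -1.29), and, on the smart scaffold, SNUPN, the nuclear import adaptor for snRNPs (-1.05, with -0.87 on the media scaffold). On the smart scaffold the calls of GEMIN5 (-0.59) and SNUPN (-0.84) were lost without day 21 plastic replicate 2, that of SNUPN also by edgeR (-0.99). That of GEMIN5 was lost as well without smart scaffold replicate 3 (limma adjusted p = 0.054) and in a fit of the 2 groups alone (adjusted p = 0.060). PRMT5 itself, like these 3 chosen for naming after values were seen, was lower in all 3 day 21 groups (-1.48, -1.42 and -1.02), and the last became -0.98 without day 0 replicate 1 and -0.99 without smart scaffold replicate 1.

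**Figure D5:**
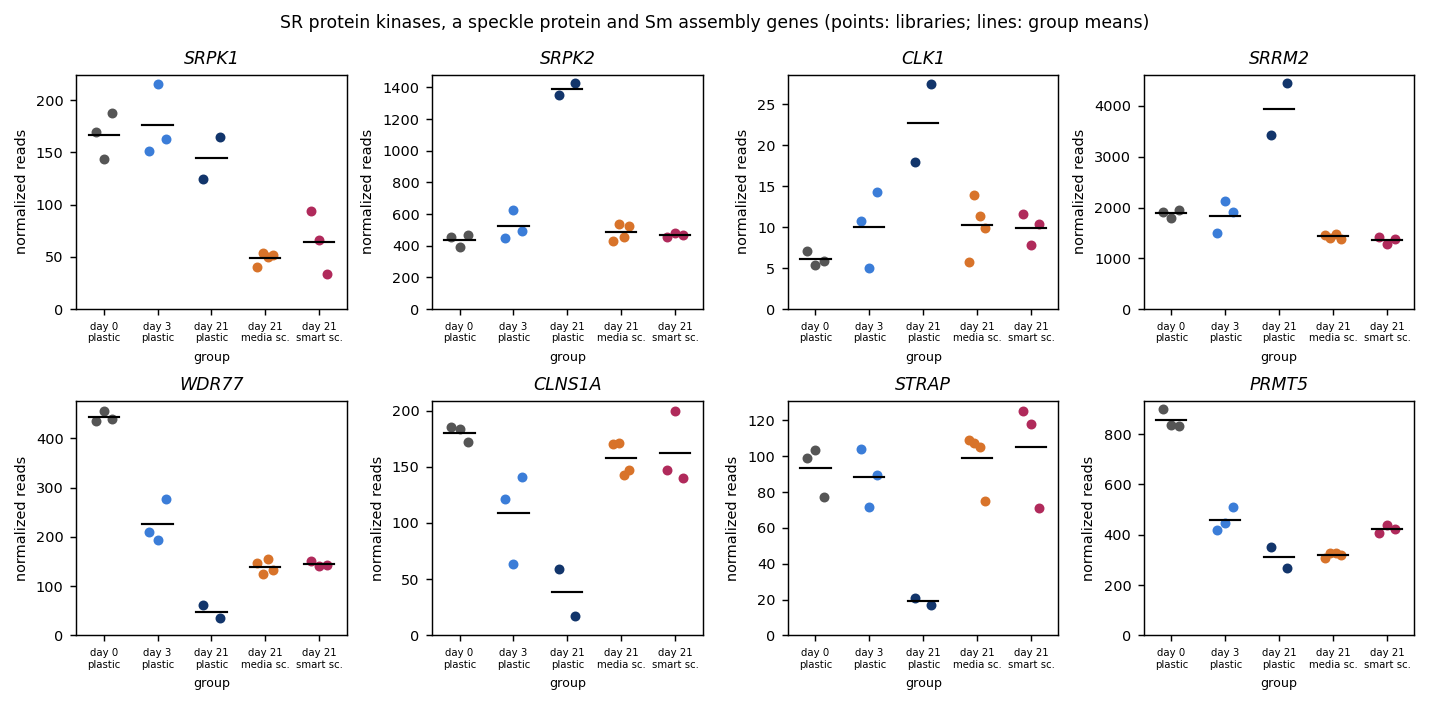
Normalized reads (vertical axes, starting at 0) of SRPK1, SRPK2, CLK1 and SRRM2 and of the Sm assembly genes WDR77, CLNS1A, STRAP and PRMT5 in the 5 groups (horizontal axes); points are libraries and lines are group means. SRPK2 and SRRM2 are high on day 21 plastic alone, and WDR77, CLNS1A and STRAP are lowest there.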

How the data were processed

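Per the labels' protocols, RNA came from a PureLink kit and the Weizmann Institute prepared MARS-seq libraries. Per the submitters' processing notes, cutadapt, STAR, HTSeq and DESeq were used with ARS-UCD1.2; their settings and whether molecular identifiers and strand were used are not given in the sources used here. The values are the signal the authors deposited: gene counts divided by a size factor per library. Of these values 100.0% were whole multiples of a library's step (tolerance 0.1 read), so reads were recovered. Another 2 value columns have names that fit no label and were not used, so the planned comparisons with the day 0 scaffold group were not run.

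Genes with a mean of at least 5 were fitted with limma 3.58.1 (R 4.3.3; trend and robust) on log2(value + 1), a scale that understates changes of low genes. Alternatives were edgeR 4.0.16 and DESeq2 1.42.0 on recovered reads, other pseudocounts, filters and scalings, a replicate block and leaving out each library. On simulated data with 200 changed genes of 10960, the test recovered 94 to 100% of 3-fold changes. It also called 44 to 61 unchanged genes in each comparison with day 21 plastic, against 0 to 5 in the others, so calls that involve those 2 libraries are less certain. The simulation gave every gene and group the same spread beyond counting, and low genes were not among its changed genes. In the real libraries the correlation between replicates was 0.9621 on day 21 plastic, 0.9631 to 0.9807 at day 3 and 0.9906 to 0.9922 at day 0. The simulated rates thus do not give the error rates of these libraries, day 3 included. The members and gene lists were chosen with earlier results of these data known. Genes named per comparison were up to 10 called members with the largest rise and 10 with the largest fall, 15 landmark genes, the 3 widest and 3 steadiest members, MKI67 and up to 2 called genes of each other list; others were chosen after their values were seen. For 1 member, counted throughout, values are not reported here and the figures leave it out. RefSeq symbols matched all 78 members. No sequence is printed, since no table of this build was used.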

Additional observations from a re-analysis of the deposited data

Results flagged for a closer look

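Among the 78 members, 5 had a media scaffold library set apart from the other 3 by more than Dixon's 95% critical value, in the group of 4 that can be tested this way. Chance alone marks about 1 in 20 such groups. The direction and library were not the same for all 5, though 3 were lowest in replicate 4. SRSF2 had its highest library, replicate 2, at 471.6 normalized reads against 433.4 to 439.8 in the others. SNRPN had its lowest, also replicate 2, at 775.1 against 821.3 to 823.2. The other 3 were lowest in replicate 4: SF3B2 at 1090 against 1287 to 1294, SRSF6 at 377.1 against 482.6 to 501.3, and PRPF40B at 58.24 against 73.04 to 75.62.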

How the results depend on the processing

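Replicate numbers gave no clear pairing of the samples. Over 26 same-numbered pairs the correlation of deviations from the group means ran from -0.074 to 0.157 (median 0.0025). It passed 0.1 in 2, against 0 of 63 other pairs. Both joined day 3 and day 21 plastic (0.157 for replicate 1 and 0.112 for replicate 2). The 2 day 21 plastic libraries deviate by equal and opposite amounts, so their pairing cannot be decided this way. With a replicate block the called members numbered 2 (day 3 against day 0), 40 and 23 (day 21 plastic against day 0 and day 3), 10 and 11 (media and smart scaffold against plastic), 29 and 27 (the scaffolds against day 0) and 0 between scaffolds. Leaving out 1 library gave 1 to 3 for day 3 against day 0, where the call count was 1 without day 0 replicate 2 or day 3 replicate 1, and 8 to 17 for each scaffold against plastic. For day 21 plastic it gave 34 to 44 against day 0, and for the scaffolds 28 to 31 and 27 to 31 against day 0. Under the other settings the counts stayed within 1.5 times. Over 781 pairs of gene and comparison no direction of a call reversed; of 12339 values 100 lost a call, 33 of them without a day 21 plastic library, and 120 gained one. Depth limits LSM5, LSM8 and HNRNPA0, and the 2 libraries of day 21 plastic limit each comparison with them. In these libraries 1 read was worth 1.38 and 3.44 normalized reads. Low values there rest on few reads, as for HNRNPLL, SF3B6, U2AF1L4, WDR77, CLNS1A, STRAP and PLRG1. The cause of the lost calls was not tested.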

Other observations

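Of 63 core spliceosome genes outside the name families, 12 were lower and 4 higher on day 21 plastic than at day 0, where 24.1% of all genes were lower and 21.2% higher. Against day 21 plastic, 7 were higher and 10 lower on the media scaffold (20.8% and 14.6% of all genes) and 6 and 12 on the smart scaffold (21.4% and 16.0%). The genes named here are those with large changes and do not stand for their lists. TXNL4A, a U5 snRNP protein, had means of 673 normalized reads at day 0, 117 on day 21 plastic, 420 on the media scaffold and 436 on the smart scaffold, a log2 change of -2.51 on plastic. PLRG1, part of the PRPF19 complex, had 126, 25.1, 129 and 134, and was 2.32 and 2.37 higher on the scaffolds than on day 21 plastic. DDX39A, an RNA helicase of mRNA export, stayed low on every support at day 21 (-2.91, -2.68 and -2.34 against day 0).

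Of 35 other regulators of alternative splicing, 10 were lower and 4 higher on day 21 plastic than at day 0 (24.1% and 21.2% of all genes). Relative to day 21 plastic, 5 were higher and 9 lower on the media scaffold (20.8% and 14.6% of all genes). On the smart scaffold 7 were higher and 9 lower (21.4% and 16.0%). These counts, too, are to be read against those shares. MATR3, a nuclear matrix protein that binds pyrimidine-rich RNA, had means of 422 normalized reads at day 0, 88.2 on day 21 plastic, 467 on the media scaffold and 426 on the smart scaffold. Among 11 exon junction and cap-binding genes, 4 were lower on day 21 plastic than at day 0, where 24.1% of all genes were lower. Against day 21 plastic, 2 were higher on the media scaffold and 3 on the smart scaffold. These were near the shares of all genes called higher, 20.8% and 21.4%. NCBP1, the large subunit of the nuclear cap-binding complex, was 2.13 and 2.19 higher on the scaffolds than on day 21 plastic. MKI67, a marker of cycling cells, had 1605 normalized reads at day 0, 22.0 on day 21 plastic, 85.8 on the media scaffold and 68.3 on the smart scaffold.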
